A study of Mus musculus with 6 samples.

Results

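The genes examined here encode the nuclear-encoded machinery that copies and transcribes mitochondrial DNA (mtDNA). They were *Tfam*, *Tfb1m*, *Tfb2m*, *Polrmt*, *Polg*, *Polg2*, *Ssbp1*, *Tefm*, *Lrpprc* and *Top1mt*. The genes were chosen by name, with earlier results of these data known. Of these 10 genes, 9 had a row of their own among the 19445 gene loci of the table, each a single row, and *Tefm* had none. All 9 passed the expression filter, a mean over 1 FPKM in at least 1 genotype, so none was lost to low values. FPKM is a read density per kilobase of transcript and scaled to the mapped reads of the library, so levels can be set side by side between genes as well as between mice.

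The tissue was subcutaneous inguinal white fat (iWAT) of 12-week-old mice labelled male, with 1 library per mouse. The transgenic (TG) group held 3 *Hlx* transgenic mice, in which an *Hlx* cDNA stands behind the *aP2* (*Fabp4*) promoter, a fat-selective promoter. The wild-type (WT) group held 3 littermate controls, and the line had been made in C57BL/6 × SJL embryos and backcrossed to C57BL/6. The design asks what the transgene does to iWAT, which the study describes as a test of how far white fat turns toward brown fat. *Hlx* itself was at 110, 79.6 and 99.5 FPKM in TG replicates 1, 2 and 3 and between 6.88 and 8.14 FPKM in the WT mice, which fits the labels, although transgene and endogenous transcripts are not separated.

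Every copy of mtDNA is maintained by proteins made from nuclear genes and imported into the organelle. Transcription starts when TFAM bends the promoter, TFB2M opens it and the RNA polymerase POLRMT begins synthesis, and short POLRMT transcripts also prime replication by the DNA polymerase γ holoenzyme (POLG with its accessory subunit POLG2). SSBP1 coats the displaced strand, TOP1MT relieves torsional strain, TEFM keeps the polymerase on its template and LRPPRC protects the messenger RNAs that result. Brown adipocytes are rich in mitochondria, and the mtDNA of a cell must be kept in step with its mitochondrial mass. The table has 0 loci on the mitochondrial chromosome, so the transcripts that this machinery makes were not analysed here.

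The adipocyte markers summed to between 27484 and 32584 FPKM in the TG mice and between 23174 and 28820 FPKM in the WT mice, and none of them was at 0. *Fabp4* made up most of that sum, at 26591 FPKM in TG and 21945 FPKM in WT iWAT on average, and 1 of the 5 was called, *Adipoq*, which was lower in TG iWAT (log2 fold change -0.85, adjusted p = 0.0172, limma). The brown-type markers *Ucp1*, *Cidea*, *Cox8b*, *Elovl3* and *Cox7a1* summed to between 6121 and 7923 FPKM in TG and between 607 and 1043 FPKM in WT iWAT, and all 5 were called higher in TG iWAT. Skeletal muscle markers were highest in TG replicate 2, at 589 FPKM summed over 9 genes, against 80.7 and 118 FPKM in the other TG mice and between 7.59 and 124 FPKM in the WT mice, with 0 of 8 tested called in either direction (limma) and 1 higher at an unadjusted p under 0.05. Macrophage markers were lower in TG iWAT, between 348 and 493 FPKM against between 734 and 935 FPKM, with 4 of 6 called lower, and lymphocyte markers summed to between 173 and 264 FPKM against between 257 and 376 FPKM, with 1 of 7 called lower. Endothelial markers summed to between 140 and 148 FPKM against between 124 and 134 FPKM, with 2 of 5 called higher, and epithelial markers to between 120 and 240 FPKM against between 207 and 274 FPKM, with 0 of 6 called in either direction (limma) and 1 lower at an unadjusted p under 0.05. The part of these cell types in the results below was not tested. *Xist*, an RNA of female cells, lay between 20.2 and 33.6 FPKM in all 6 libraries and the 28 Y-linked loci were listed at 0 in each, against the male label. In bulk tissue, fewer cells of a type and less RNA per cell cannot be told apart.

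The promoters are shown first, since the members differed in a feature that the choice of genes did not use. RefSeq promoter windows, from 250 bases before to 50 bases after the annotated start on GRCm38.p6 (mm10), were matched by symbol for 9 of the 10 members, *Top1mt* being the exception. The letters CCGGAAG or their reverse complement CTTCCGG are a form of the site recognised by ETS factors such as GABPA. This exact word occurred in 6 of these 9 windows, those of *Tfam*, *Polrmt*, *Polg*, *Polg2*, *Ssbp1* and *Tefm*. It was in 8.86% of all 32851 windows of the same length and 19% of 8267 tested symbols with a window. The word began between 47 and 9 bases before the start in each. The 5 of these genes that were measured are shown first below, followed by the other 3 measured members. Each sequence runs 5′ to 3′ on the coding strand from 60 bases before the start through the first 30 transcribed bases. Capitals mark an exact match to the ETS word or, in *Tfb2m*, to CGCATGCG, a form of the core of the NRF1 site.

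*Tfam* (chr10:71238015-71238104, minus strand): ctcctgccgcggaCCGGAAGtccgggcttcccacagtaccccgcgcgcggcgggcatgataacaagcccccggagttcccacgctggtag
*Polrmt* (chr10:79746552-79746641, minus strand): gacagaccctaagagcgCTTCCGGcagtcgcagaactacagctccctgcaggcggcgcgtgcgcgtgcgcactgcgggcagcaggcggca
*Polg* (chr7:79466244-79466333, minus strand): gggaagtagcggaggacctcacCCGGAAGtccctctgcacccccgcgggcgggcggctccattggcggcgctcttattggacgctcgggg
*Polg2* (chr11:106779508-106779597, minus strand): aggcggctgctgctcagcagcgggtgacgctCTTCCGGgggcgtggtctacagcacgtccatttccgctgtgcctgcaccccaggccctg
*Ssbp1* (chr6:40471408-40471497, plus strand): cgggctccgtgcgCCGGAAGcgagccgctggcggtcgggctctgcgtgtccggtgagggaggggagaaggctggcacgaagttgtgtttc
*Tfb2m* (chr1:179546247-179546336, minus strand): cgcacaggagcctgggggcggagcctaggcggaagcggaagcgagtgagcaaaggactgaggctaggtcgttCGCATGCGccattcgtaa
*Lrpprc* (chr17:84790757-84790846, minus strand): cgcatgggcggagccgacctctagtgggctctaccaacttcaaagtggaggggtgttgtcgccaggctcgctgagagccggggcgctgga
*Tfb1m* (chr17:3557726-3557815, minus strand): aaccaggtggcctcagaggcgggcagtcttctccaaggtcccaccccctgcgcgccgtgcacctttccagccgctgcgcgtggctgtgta

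The exact NRF1 word, which is its own reverse complement, was found in the window of *Tfb2m* only among the 9, starting at transcribed base 13. It was in 1.87% of all windows and in 4.25% of those of tested symbols. The GC box GGGCGG, searched on both strands like the other words, was found in 6 of the 9 windows, in 35.7% of all windows and in 68.9% of those of tested symbols, so its share among the members was close to that of tested genes. The word TNAAGGTCA of the estrogen-related receptors and the YY1 word AANATGGCG were found in 0 of the 9 windows, in 1.28% and 2.38% of all windows and in 0.919% and 5.78% of those of tested symbols. A match is a description of the letters and not a bound site. Only exact words were searched, so a window without a word can still hold a near form of it. Unmarked examples are cgcgtgcg for NRF1 in the printed *Polrmt* sequence and gcggaag for ETS in that of *Tfb2m*. No match of one word overlapped a match of another word in these 9 windows, 2 GC boxes of *Polg* overlapped each other, and GC boxes are left in lower case.

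Of the 9 measured members, 4 were higher in TG iWAT at an adjusted p under 0.05 (limma on log2(FPKM + 1), Benjamini-Hochberg adjustment over all 11692 tested loci, n = 3 mice per genotype), and 0 were lower, also at an unadjusted p under 0.05. Among all tested loci 11.6% were called higher and 7.03% lower. The 4 were *Lrpprc*, *Tfb2m*, *Top1mt* and *Polrmt*, and the fitted log2 fold change was above 0 for all 9, from 0.0032 for *Polg2* to 0.86 for *Lrpprc*. Their median log2 fold change was 0.22, against -0.011 over all tested loci. Every TG mouse exceeded every WT mouse at 5 of the 9, the called genes and *Tfam*, where 22.8% of all tested loci had this pattern. The reverse pattern, every TG mouse under every WT mouse, was seen at 0 of the 9, against 20.1% of all tested loci. Taken alone, none of these genes could pass 0.05 in an exact permutation test (two-sided), for which 3 mice per genotype allow p = 0.1 at the least, and these 5 genes reached that value.

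**Figure D1:**
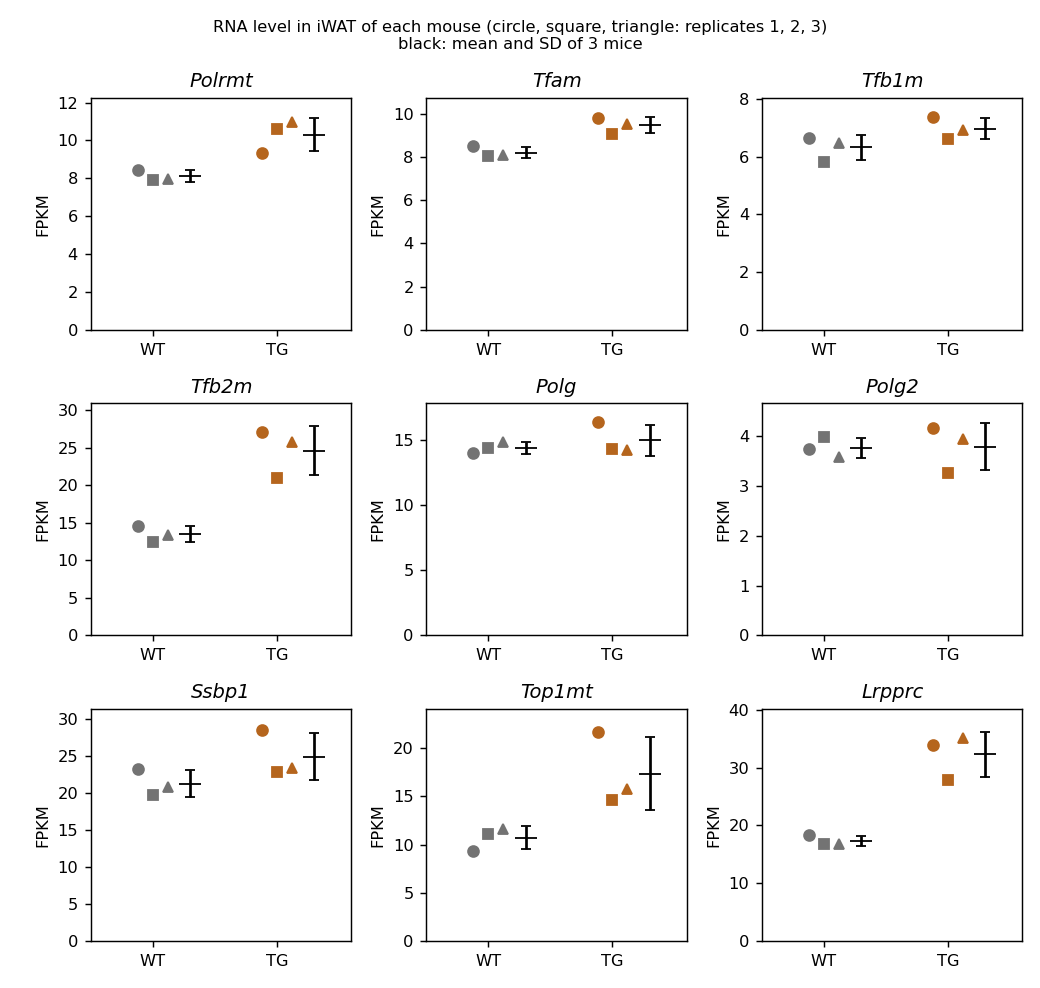
RNA level in FPKM of the 9 measured members in each of the 3 WT mice (grey) and 3 TG mice (brown), with the mean and SD of each genotype in black and every vertical axis starting at 0. *Tfb2m*, *Lrpprc*, *Top1mt*, *Polrmt* and *Tfam* separate the genotypes, while the TG and WT mice overlap for *Polg*, *Polg2*, *Ssbp1* and *Tfb1m*.

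Among the transcription factors of the organelle, the initiation factor *Tfb2m* moved most. It was at 27.1, 20.9 and 25.8 FPKM in TG replicates 1, 2 and 3 and at 14.6, 12.5 and 13.4 FPKM in WT replicates 1, 2 and 3. Its lowest TG mouse stood well above its highest WT mouse. The WT mean of 13.5 ± 1.07 FPKM compares with a TG mean of 24.6 ± 3.25 FPKM (SD, n = 3 per genotype), 1.82-fold, and the log2 fold change was 0.82 with a standard error of 0.11 (adjusted p = 0.00455, limma). The gene lies on chromosome 1 from 179528055 to 179546286 (mm10), shares no exon with another GENCODE gene, and was called in all 14 other settings tried, with log2 fold changes between 0.75 and 0.92.

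*Polrmt*, the RNA polymerase that TFB2M assists, was at 9.32, 10.6 and 10.98 FPKM in the TG mice and at 8.46, 7.89 and 7.99 FPKM in the WT mice. The groups did not overlap, but TG replicate 1 was close to WT replicate 1. The mean was 1.27-fold higher, 10.3 ± 0.869 FPKM against 8.11 ± 0.304 FPKM (SD, n = 3 each), and the log2 fold change was 0.31 with a standard error of 0.085 (adjusted p = 0.0472, limma). This call stood next to the threshold and was lost in 9 of 14 other settings. Among them were the fits without TG replicate 2 (adjusted p = 0.0983, limma), TG replicate 3 (0.143) and WT replicates 1, 2 and 3 (0.0813, 0.132 and 0.129). The table gives its position as an interval on chromosome 10 shared with 40 other genes, although GENCODE shows no exon shared with any of them.

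*Tfam*, which packages mtDNA into nucleoids and bends its promoters, had 9.81, 9.08 and 9.52 FPKM in TG and 8.49, 8.03 and 8.07 FPKM in WT iWAT. The groups were separate and tight, yet the difference was small. Its mean was 9.47 ± 0.370 FPKM against 8.20 ± 0.253 FPKM (SD, n = 3 each), or 1.16-fold, and the log2 fold change of 0.19 (95% interval 0.016 to 0.36, unadjusted) had an adjusted p of 0.112 (limma), so it was not called, and it was called in 0 of 14 other settings. *Tfb1m*, the paralogue of *Tfb2m* that methylates the small-subunit ribosomal RNA of the organelle, had 7.37, 6.63 and 6.93 FPKM in TG and 6.66, 5.83 and 6.47 FPKM in WT iWAT. Those ranges overlapped, the log2 fold change was 0.12 (95% interval -0.075 to 0.32) and the adjusted p was 0.325 (limma). *Tfb1m* shares 142 exon bases, or 3.93% of its own, with *Tiam2* on the other strand, and the library kit does not mark strand.

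The subunits of the DNA polymerase were not called. *Polg*, the catalytic subunit, was at 16.3, 14.3 and 14.2 FPKM in the TG mice and at 13.9, 14.4 and 14.8 FPKM in the WT mice. Only TG replicate 1 lay above the WT mice, and the other TG mice were inside or near their range. The log2 fold change was 0.049 (95% interval -0.14 to 0.24, limma adjusted p = 0.695). Without TG replicate 1 the log2 fold change was -0.013. *Polg* shares 921 exon bases, 8.57% of its own, with *Fanci* on the other strand, the largest such overlap among the members.

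*Polg2*, the processivity subunit, was the least abundant member, with 4.16, 3.26 and 3.95 FPKM in TG and 3.74, 3.98 and 3.58 FPKM in WT iWAT. The TG mice straddled the WT mice on both sides. Its log2 fold change was 0.0032 (95% interval -0.24 to 0.25, limma adjusted p = 0.983), and the estimate was below 0 in 5 of 14 other settings. *Ssbp1*, the single-stranded DNA-binding protein of the replication fork, had 28.6, 22.8 and 23.4 FPKM in TG and 23.2, 19.7 and 20.8 FPKM in WT iWAT. TG replicate 2 was below WT replicate 1, so the groups overlapped. The log2 fold change was 0.22 (95% interval -0.045 to 0.48, limma adjusted p = 0.204).

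*Top1mt*, the topoisomerase of the mitochondrial genome, was at 21.7, 14.6 and 15.8 FPKM in TG and 9.37, 11.1 and 11.7 FPKM in WT iWAT. The groups were separate, and TG replicate 1 stood above the other TG mice. Mean levels were 17.4 ± 3.79 FPKM in TG and 10.7 ± 1.19 FPKM in WT iWAT (SD, n = 3 each), a 1.62-fold rise, and the log2 fold change was 0.63 with a standard error of 0.15 (adjusted p = 0.032, limma). The call was lost in 6 of 14 other settings, with an adjusted p of up to 0.112. Among them were the fits without TG replicate 3 (adjusted p = 0.071, limma) and without WT replicates 1, 2 and 3 (0.0886, 0.0756 and 0.068). *Top1mt* shares 95 exon bases, 4.65% of its own, with the antisense gene *Gm15945*.

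*Lrpprc*, which with SLIRP shields mitochondrial messenger RNAs from decay, showed the largest rise of the members. It was at 33.9, 27.9 and 35.2 FPKM in the TG mice and at 18.3, 16.8 and 16.7 FPKM in the WT mice. No TG mouse came near the WT range. Its TG mean, 32.3 ± 3.88 FPKM, was 1.87-fold the WT mean of 17.3 ± 0.884 FPKM (SD, n = 3 each), and the log2 fold change was 0.86 with a standard error of 0.10 (adjusted p = 0.00266, limma). It lies on chromosome 17 from 84705246 to 84790786 (mm10), shares no exon with another gene, and was called in all 14 other settings. *Slirp* had no row in the table.

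**Figure D2:**
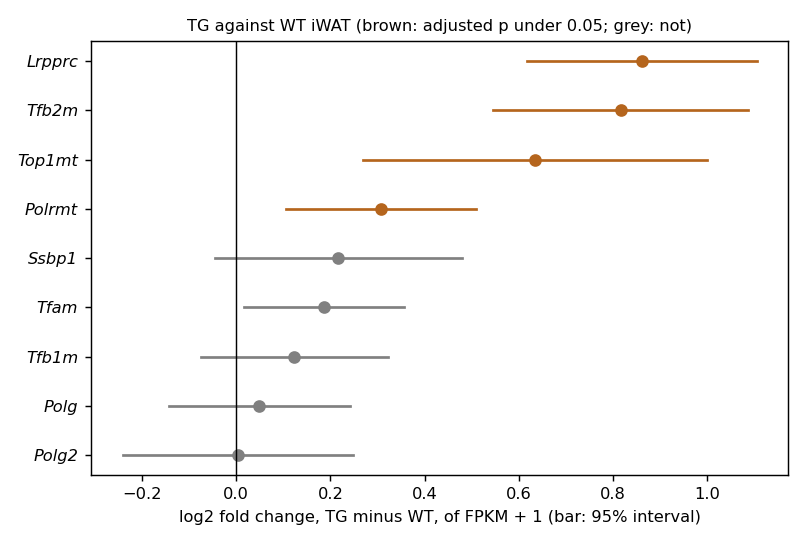
Log2 fold change of FPKM + 1, TG minus WT, with its unadjusted 95% interval from limma, for the 9 measured members, brown where the adjusted p was under 0.05. *Lrpprc* (0.86) and *Tfb2m* (0.82) lie apart from 0, *Polrmt* (0.31) is called near the threshold, and the intervals of *Polg* and *Polg2* are centred close to 0.

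The mice of one genotype tended to rank alike across members. TG replicate 1 had the highest TG value of 7 of the 9 genes, and TG replicate 2 the lowest TG value of 7. *Polrmt* was lowest in TG replicate 1. WT replicate 1 had the highest WT value of 6 of the 9. FPKM summed over all loci was also highest in TG replicate 1 (542096) among TG and in WT replicate 1 (518450) among WT mice. These ranks were not counted over all loci, so whether they are particular to the members was not tested. TG replicate 1 also had the highest sum of brown-type markers, 7923 FPKM, and TG replicate 2 the highest sum of muscle markers. Without TG replicate 2, the log2 fold changes of *Lrpprc* and *Tfb2m* were 0.96 and 0.92, and both stayed called, as did *Top1mt* (0.74), while *Polrmt* (0.29) was not, leaving 3 of the 9 members.

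The order of levels changed at the top. In WT iWAT *Ssbp1* was highest, at 21.2 FPKM, followed by *Lrpprc*, *Polg*, *Tfb2m*, *Top1mt*, *Tfam*, *Polrmt*, *Tfb1m* and *Polg2*, and the neighbours whose mice overlapped were *Polg* with *Tfb2m* and *Tfam* with *Polrmt*. In TG iWAT *Lrpprc* was highest, at 32.3 FPKM, followed by *Ssbp1*, *Tfb2m*, *Top1mt*, *Polg*, *Polrmt*, *Tfam*, *Tfb1m* and *Polg2*. There each of the first 5 overlapped with its neighbour, as did *Polrmt* with *Tfam*. *Tfb1m* and *Polg2* stood apart from their neighbours at the bottom of the order in both genotypes. On this per-length scale the polymerase *Polrmt* was under the level of its initiation factor *Tfb2m* in every mouse.

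Ratios within a mouse remove what is common to both genes of that mouse. The *Tfb2m*/*Tfb1m* ratio was 3.67, 3.16 and 3.73 in TG and 2.19, 2.14 and 2.06 in WT replicates 1, 2 and 3, a log2 difference of 0.72. The *Tfb2m*/*Polrmt* ratio was 2.90, 1.97 and 2.35 in TG and 1.73, 1.58 and 1.67 in WT replicates, a log2 difference of 0.52. Both ratios separated the genotypes.

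*Top1mt* was also set against *Top1*, the nuclear topoisomerase, and that ratio was 0.821, 0.484 and 0.555 in TG and 0.278, 0.382 and 0.347 in WT replicates. Its log2 difference was 0.86, again with separate groups. The *Polg2*/*Polg* ratio, 0.254 ± 0.025 in TG and 0.262 ± 0.0186 in WT iWAT (SD, n = 3 each), and the *Tfam*/*Ssbp1* ratio, 0.383 ± 0.0345 and 0.387 ± 0.0213 (SD, n = 3 each), overlapped between genotypes, with log2 differences of -0.049 and -0.019. The exact permutation test (two-sided, n = 3 per genotype) gave p = 0.1 for each of the 3 separated ratios, the smallest it allows, and p = 0.167 after Benjamini-Hochberg adjustment over the 5 pairs, so no pair could pass 0.05. The same exact test gave p = 0.7 and p = 0.8 for the overlapping pairs.

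**Figure D3:**
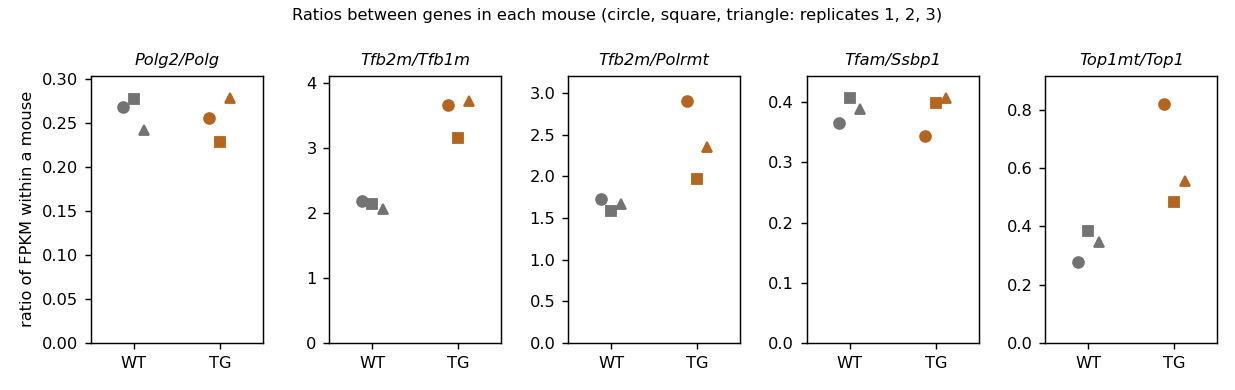
Ratio of FPKM between 2 genes within each mouse, for 5 pairs, WT in grey and TG in brown, with each vertical axis starting at 0. The TG mice lie above all WT mice for *Tfb2m*/*Tfb1m*, *Tfb2m*/*Polrmt* and *Top1mt*/*Top1*, and overlap with the WT mice for *Polg2*/*Polg* and *Tfam*/*Ssbp1*.

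The wider pathway was read from 43 further genes in 4 lists, of which 36 were tested. Of these, 14 were called higher and 0 lower (limma), with 1 lower at an unadjusted p under 0.05, and the median log2 fold change was 0.27. The calls were unevenly spread. Mitochondrial RNA processing and decay had 10 of 16 genes called higher, with a median of 0.41, and the fitted value was above 0 for all 16. The 4 largest were *Ptcd3* (0.95), *Grsf1* (0.74), *Supv3l1* (0.67) and *Tbrg4* (0.64). *Ptcd3*, a pentatricopeptide protein of the mitochondrial ribosome, had 42.1 ± 6.02 FPKM in TG and 21.2 ± 1.21 FPKM in WT iWAT (SD, n = 3 each, adjusted p = 0.00253, limma). *Grsf1* is an RNA-binding protein of mitochondrial RNA granules, and it had 44.1 ± 3.85 FPKM in TG and 26.0 ± 3.08 FPKM in WT iWAT (adjusted p = 0.00563, limma). *Supv3l1*, the helicase of the mitochondrial RNA degradosome, had an adjusted p of 0.00766 (limma), and *Tbrg4*, a FASTK-family protein that affects mitochondrial mRNA stability, of 0.0118.

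Nucleotide supply had 3 of 8 genes called higher, with a median of 0.25. *Sucla2* and *Suclg1*, subunits of succinyl-CoA ligase, which also belongs to the tricarboxylic acid cycle, had TG levels of 489.8 ± 116 FPKM and 481 ± 95.2 FPKM against WT levels of 108 ± 14.9 FPKM and 119 ± 11.7 FPKM (SD, n = 3 each). Their log2 fold changes were 2.14 (adjusted p = 0.00104, limma) and 1.99 (adjusted p = 0.00077, limma). *Slc25a33*, a pyrimidine nucleotide carrier, had 6.01 ± 0.723 FPKM against 3.03 ± 0.91 FPKM (log2 fold change 0.82, adjusted p = 0.0242, limma). The salvage kinases of mitochondrial deoxynucleosides, *Tk2* and *Dguok*, named after their values were seen, were not called, with log2 fold changes of 0.12 and -0.17.

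Of 8 further replication and maintenance genes tested, 1 was called, the nuclease *Endog* (log2 fold change 0.73, adjusted p = 0.016, limma), and their median was 0.054. This share, 12.5%, was close to the 11.6% of all tested loci called higher, and 4 of the 8 had a fitted value below 0. *Top3a*, named after its value was seen, was lower in every TG mouse than in any WT mouse. It was not called (log2 fold change -0.32, adjusted p = 0.0991, limma). The replicative helicase *Twnk*, listed as *Peo1* and named here for its role after its value was seen, had 6.46 ± 0.765 FPKM in TG and 5.39 ± 0.839 FPKM in WT iWAT (SD, n = 3 each) and was not called (log2 fold change 0.23, adjusted p = 0.23, limma). The MTERF family of transcription termination-like factors had 0 of 4 tested genes called (limma), with 2 higher at an unadjusted p under 0.05. The largest of them, *Mterf2*, listed as *Mterfd3* and named after its value was seen, reached 0.50 on the log2 scale with an adjusted p of 0.0662 (limma).

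**Figure D4:**
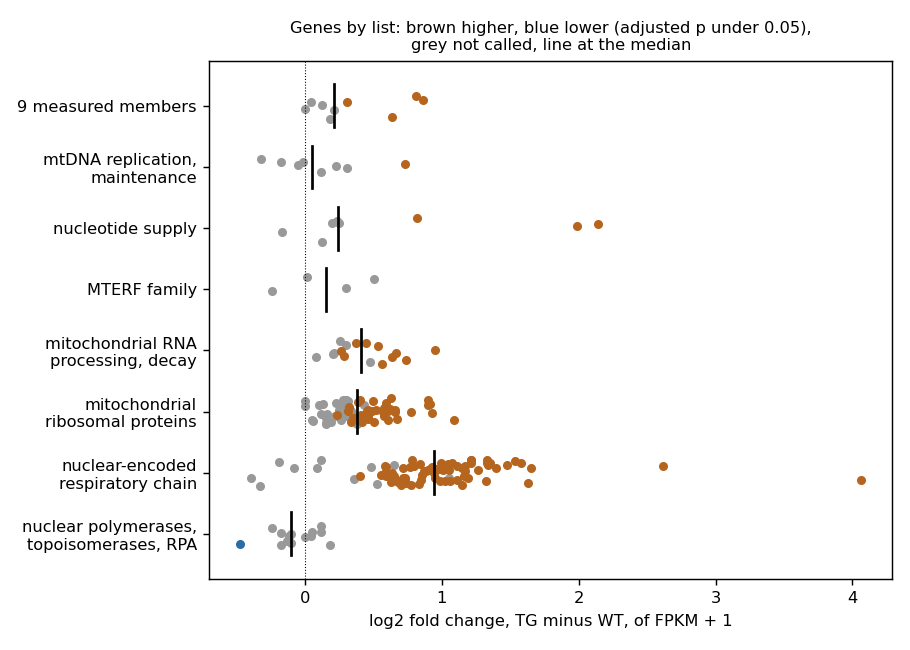
Log2 fold change of FPKM + 1, TG minus WT, of each tested gene in 8 lists, with the list median as a black line, brown for genes called higher, blue for genes called lower and grey for genes not called. The 9 measured members have a median of 0.22, below that of the respiratory chain genes (0.95), and the nuclear polymerases and topoisomerases lie around -0.098.

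The members' median of 0.22 lay above those of the further replication genes (0.054) and the MTERF family (0.16) and below those of larger mitochondrial groups. Of 71 tested mitochondrial ribosomal protein genes, 37 were called higher and 0 lower (limma; 0 lower at an unadjusted p under 0.05 as well), and their median change was 0.38 on the log2 scale. Of 81 nuclear-encoded respiratory chain and ATP synthase genes, 70 were called higher and 0 lower (limma; 1 lower at an unadjusted p under 0.05), with a median of 0.95. Among 14 nuclear polymerase, topoisomerase and replication protein A genes, 0 were called higher (limma; 0 at an unadjusted p under 0.05) and 1 lower, with a median of -0.098. That gene was *Polr2a*, the large subunit of RNA polymerase II, with 37.9 ± 0.822 FPKM in TG and 53.0 ± 4.85 FPKM in WT iWAT (SD, n = 3 each, log2 fold change -0.47, adjusted p = 0.0126, limma). The ribosomal protein and respiratory chain lists hold all genes that match a symbol pattern, so membership rests on the symbol alone. These are counts and medians, and the difference between lists was not tested.

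The regulators known to act on mitochondrial genes showed 4 of 9 called higher and 0 lower (limma), with 2 lower at an unadjusted p under 0.05. *Ppara* and *Esrrg*, nuclear receptors of oxidative metabolism, rose by 2.63 and 1.44 on the log2 scale (adjusted p = 0.00192 and 0.00237, limma). The coactivators *Ppargc1b* and *Ppargc1a* rose by 1.49 and 0.51 (adjusted p = 0.00363 and 0.0122, limma). Of the factors whose words were searched in the promoters, *Esrrg* was called higher, *Esrra* had no row of its own, and *Gabpa*, *Nrf1* and *Yy1*, named after their values were seen, were not called. The log2 fold change of *Gabpa* was 0.45 (adjusted p = 0.0552, limma), that of *Nrf1* -0.21 (adjusted p = 0.102, limma) and that of *Yy1* -0.089 (adjusted p = 0.402, limma). *Gabpb1*, in the same list and also named after its value was seen, went the other way from *Gabpa*. It was lower in every TG mouse than in any WT mouse and was not called (log2 fold change -0.29, adjusted p = 0.0921, limma). Of the members without the exact ETS word in their window, *Tfb2m* and *Lrpprc* were called and *Tfb1m* was not. Of the 5 measured members with it, *Polrmt* was called and *Tfam*, *Polg*, *Polg2* and *Ssbp1* were not. Near forms of the word were not searched, and a link between the word and the calls was not tested.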

How the data were processed

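The authors made TruSeq RNA v2 libraries, which do not mark strand, from total RNA and sequenced single-end reads. The authors aligned them to mm10 using TopHat and deposited FPKM per gene and mouse from Cufflinks. Per the submitters' processing notes, versions were TopHat2 2.0.9, Bowtie2 2.1.0, Cufflinks 2.2.1 and CASAVA 1.8.2, and the annotation is not given in the sources used here. FPKM summed to between 466059 and 542096 per mouse. Absolute depth is unknown. Steps between low values (under 0.3 FPKM) gave relative depths between 0.693 and 1.41, but only between 12.4% and 15.2% of compared loci lay on the step, so no count test was run.

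Of 19445 loci, the 11692 whose genotype mean exceeded 1 FPKM in TG or WT were tested on log2(FPKM + 1), which understates the change of low genes, with limma 3.58.1 in R 4.3.3 (a two-sided test by eBayes with a trend, genotype alone in the model, and p-values adjusted by Benjamini-Hochberg). The fit was also run on simulated data, with larger changes than any member showed. That run therefore does not show how well changes of the members' size are found. Alternatives were a pseudocount of 0.1, no filter or one on the mean of all mice, quantile and median-ratio scaling, no trend, sample weights, the replicate number as a block and each mouse left out. The members and lists were chosen with earlier results of these data known. All members are named, and of each pathway and comparison list up to 4 called genes per direction by size of change, plus partners of members in a ratio. The sources used here do not say which mice shared a litter. The limma p-values set the genotype difference against the spread between mice, moderated over all tested loci. Promoters are those of RefSeq and exon overlaps those of GENCODE M21, both on GRCm38.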

Additional observations from a re-analysis of the deposited data

How the results depend on the processing

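Of the 4 members called higher, *Lrpprc* and *Tfb2m* kept their call in all 14 other settings, *Top1mt* in 8 and *Polrmt* in 5. The number called was 2 with no filter on low values and between 2 and 4 when each mouse was left out. Calls also fell over all loci. The main fit called 1352 of 11692 loci higher, against 748 of 19445 with no filter. With a mouse left out, between 779 and 1277 of 11692 loci were called higher. The number of the other pathway genes called higher, 14, was 8 with no filter and between 9 and 14 with a mouse left out, with 9 without WT replicate 2, TG replicate 1 or TG replicate 3. No member or pathway gene was called lower in any setting run. The log2 fold change of *Polg* lay between -0.013 and 0.081 with a mouse left out, negative only without TG replicate 1, and that of *Polg2* was -0.010 with sample quality weights and between -0.053 and 0.086 with a mouse left out. The cause was not tested.

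With the replicate number as a block, 2 members were called, *Lrpprc* and *Tfb2m*, and 11 pathway genes. Deviations of same-numbered mice correlated at 0.013, 0.034 and 0.070, and no mouse correlated best with its own number. The numbers thus gave no sign of a pairing, although 3 mice per genotype cannot exclude a shared litter or batch. The *Tefm*/*Polrmt* and *Slirp*/*Lrpprc* ratios were not run, since *Tefm* and *Slirp* had no row. Precision is limited by 3 mice per genotype.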

Other observations

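The promoter words searched above were also counted in the windows of all 8267 tested symbols with a RefSeq window. The ETS word CCGGAAG was in the windows of 20.9% of 966 symbols called higher in TG iWAT, 8.42% of 582 called lower and 19.7% of 6719 called in neither direction. The NRF1 word CGCATGCG was in 5.49%, 1.72% and 4.29% of the same groups, and the YY1 word AANATGGCG in 6.63%, 3.78% and 5.83%. The GC box GGGCGG was in 67.2%, 61.3% and 69.7%, and the word TNAAGGTCA of the estrogen-related receptors in 0.932%, 1.03% and 0.908%, and neither was highest among the symbols called higher. These shares are descriptions of the windows, and genes with windows of unlike base composition were not separated.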
